A study of Mus musculus with 2 samples.

Results

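The data described here are the levels of 9 transcription factor genes that mark the ventral interneuron classes of the spinal cord, among 43346 mouse genes counted in the neural tube at embryonic day 12.5. The members, Evx1, Evx2, En1, En2, Vsx1, Gata2, Gata3, Tal1 and Sim1, were taken by symbol and matched by Ensembl identifier. All 9 were found in both gene tables, and 20 of their transcripts in the transcript tables. Total RNA came from neural tubes of the mouse strain B6NCrl. The labels give 1 group of 2 biological replicates, with 120 pooled embryos in replicate 1 and 88 in replicate 2, both sexes mixed and a shared donor identifier, and 10 ng of RNA longer than the stated size limit went into each library. No genotype, treatment, second stage or second tissue was compared, so the results are levels in each library, differences between members and differences between the pools, and no p-value can be given.

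The gene tables held 31610805 estimated reads on mouse genes in replicate 1 and 33530172 in replicate 2. With counts scaled to these totals (CPM), 0 reads leave room for a level of 0.0949 CPM in replicate 1 and 0.0895 CPM in replicate 2, taking 3 counts as the limit. General neural genes were high, with the neuronal tubulin Tubb3 at 1004 and 1030 TPM and the progenitor factor Sox2 at 38.8 and 37.6 TPM in replicates 1 and 2. TPM is the deposited abundance, corrected for transcript length and depth. In pooled tissue, fewer cells of a type and less RNA per cell cannot be told apart.

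Neurons of the ventral spinal cord arise from progenitor domains that are set up along the dorsoventral axis by Sonic hedgehog from the notochord and floor plate. Each domain gives a class of postmitotic neurons with its own homeodomain, GATA, bHLH or PAS factors. Evx1 and Evx2 mark V0 neurons, many of which cross the midline, and Evx1 keeps them from taking the V1 fate. En1 marks the inhibitory V1 neurons, among them Renshaw cells. Vsx1 is expressed in precursors of V2 neurons, which divide through Notch signalling into excitatory V2a cells and inhibitory V2b cells, and Gata2, Gata3 and Tal1 mark V2b cells. Sim1 marks the excitatory V3 neurons. En2, a paralog of En1, is best known from the midbrain and cerebellum.

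The V2b factors Gata3 and Gata2 stood highest and En2 was barely counted. Gata3 led at 9.77 ± 0.368 TPM, followed by Gata2, Evx1, En1 and Tal1 between 2.62 and 4.75 TPM, while Evx2, Sim1 and Vsx1 lay under 1 TPM on average (SD, n = 2). In both libraries 5 of the 9 factors reached 1 TPM, the limit of detection used here, against 62.1% of all protein-coding genes and 35% of all mouse genes. The median factor stood at 2.73 TPM in replicate 1 and 2.5 TPM in replicate 2, against 5.5 and 5.66 TPM for the median protein-coding gene. Together the 9 genes held 26.8 and 26.1 TPM.

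**Figure D1:**
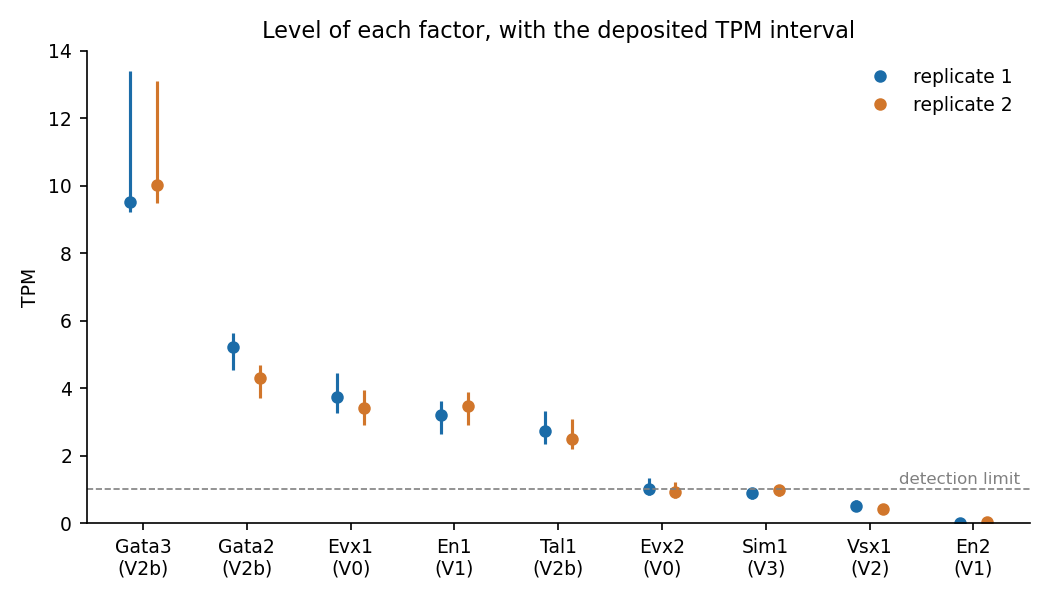
Level of each factor in TPM on a linear axis, in order of the mean, with the neuron class under its name. Points are replicate 1 and replicate 2, lines are the deposited TPM intervals, and the dashed line is 1 TPM. Gata3 stands apart at 9.51 and 10.03 TPM, and En2 lies at 0 and 0.04 TPM.

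The order of the levels was clear at some steps and not at others. The library values of Gata3 lay above those of Gata2 (lowest 9.51 against highest 5.21 TPM), and the deposited intervals were also apart in both libraries. Gata2 lay above Evx1 (4.29 against 3.75 TPM), and En1 above Tal1 (3.21 against 2.73 TPM), by their library values but not by the deposited intervals. Evx1 and En1 did not differ beyond their spread, nor did Evx2 and Sim1. The steps from Tal1 to Evx2, from Sim1 to Vsx1 and from Vsx1 to En2 were clear by both measures.

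By class, the 3 V2b factors held 65.0% of the summed TPM of the 9 genes in replicate 1 and 64.6% in replicate 2. The V0 factors held 17.8% and 16.5%, and the engrailed genes 12% and 13.5%. The V3 factor Sim1 held 3.32% and 3.8%, and the V2 precursor factor Vsx1 held 1.94% and 1.61%. These are shares of transcripts, not of neurons, and the V2b class is represented by more genes than the others. The length of the transcript matters for Sim1, whose listed transcript has 7355 bases, the longest among the factors. In expected counts, not corrected for length, Sim1 held 7.54% and 8.81%.

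Among the V2b factors, Gata3 (ENSMUSG00000015619, chromosome 2, 9857078 to 9890034, minus strand, GRCm38) encodes a zinc finger factor needed for V2b identity. It had 553 estimated reads in replicate 1 and 577 in replicate 2, which gave 9.51 and 10.03 TPM, and 56.4% and 56.7% of protein-coding genes had lower values. Its deposited TPM lay near the lower end of the deposited intervals (9.21 to 13.4 and 9.5 to 13.1 TPM), and the posterior mean TPM was 11.10 and 11.24. Gata2 (ENSMUSG00000015053, chromosome 6, 88193891 to 88207032, plus strand), which precedes Gata3 in V2b precursors, had 324 and 276 reads and 5.21 and 4.29 TPM. It is the factor with the largest distance between the libraries in absolute TPM. Tal1 (ENSMUSG00000028717, chromosome 4, 115056426 to 115071755, plus strand), a bHLH factor that forms complexes with LIM-only and GATA proteins, had 203 and 206 reads and 2.73 and 2.5 TPM. Per base of transcript, Gata3 exceeded Gata2 by 1.83-fold in replicate 1 (95% exact binomial interval 1.59 to 2.1) and by 2.34-fold in replicate 2 (2.02 to 2.71). These intervals cover counting error only. On the log2(TPM + 1) scale the difference was 0.91 ± 0.21 (SD, n = 2).

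Of the V0 factors, Evx1 (ENSMUSG00000005503, chromosome 6, 52313498 to 52318378, plus strand) was the higher in both libraries. It had 207 reads in replicate 1 and 190 in replicate 2, and 3.75 and 3.40 TPM. Evx2 (ENSMUSG00000001815, chromosome 2, 74652991 to 74659557, minus strand), its paralog next to the Hoxd cluster, had 83 and 77 reads and 1.02 and 0.91 TPM, so it reached 1 TPM in 1 library only. Per base of transcript, Evx1 exceeded Evx2 by 3.67-fold in replicate 1 (95% exact binomial interval 2.83 to 4.8, counting error only) and by 3.73-fold in replicate 2 (2.85 to 4.93). On the log2(TPM + 1) scale the difference was 1.22 ± 0.02 (SD, n = 2).

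The engrailed genes were far apart. En1 (ENSMUSG00000058665, chromosome 1, 120602418 to 120607992, plus strand), the V1 factor, had 161 reads in replicate 1 and 181 in replicate 2, with 3.21 and 3.47 TPM. En2 (ENSMUSG00000039095, chromosome 5, 28165694 to 28172166, plus strand) had 0 reads in replicate 1 and 3 in replicate 2, with 0 and 0.04 TPM. Per base of transcript, En1 was 73.1-fold higher than En2 in replicate 1 with En2 set to 3 counts in that library. No interval was computed for that ratio, which leaves out the counting error of En1. In replicate 2 En1 was 82.2-fold higher, with a 95% exact binomial interval of 27.7 to 402 from counting error. The difference of 2.09 ± 0.02 on the log2(TPM + 1) scale understates the distance, since the added 1 outweighs the level of En2 (SD, n = 2).

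The remaining factors lay at or under the limit of detection. Sim1 (ENSMUSG00000019913, chromosome 10, 50894754 to 50989152, plus strand) had 128 reads in replicate 1 and 149 in replicate 2, and 0.89 and 0.99 TPM. Its deposited intervals, 0.719 to 1.02 and 0.818 to 1.13 TPM, crossed 1 TPM. Vsx1 (ENSMUSG00000033080, chromosome 2, 150680702 to 150689360, minus strand) had 38 and 32 reads and 0.52 and 0.42 TPM. Both were under 1 TPM in both libraries, though each was counted well above the limit that a count of 0 allows. Of protein-coding genes, 33.7% and 32.6% had lower values than Vsx1.

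Paralogs within these families carry nearly the same DNA-binding domain, so the sequences below show how far reads could be told apart. The deposited effective length of each factor was 99 bases below its length, and the stretches shown are the most alike coding stretches of 100 bases without gaps, from GENCODE M21 transcripts on GRCm38. Capitals mark the bases that differ. The Evx1 and Evx2 stretches come from the homeobox and the bases after it and span an intron, at chr6:52315986-52316623 (plus strand) and chr2:74656245-74657775 (minus strand).
Evx1: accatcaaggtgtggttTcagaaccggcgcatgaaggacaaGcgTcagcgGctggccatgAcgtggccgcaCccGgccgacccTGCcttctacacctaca
Evx2: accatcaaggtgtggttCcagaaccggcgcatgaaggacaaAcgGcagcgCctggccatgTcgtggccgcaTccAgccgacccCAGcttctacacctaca
The En1 and En2 stretches are homeobox sequence of the second exon, at chr1:120606995-120607094 and chr5:28170241-28170340 (both plus strand).
En1: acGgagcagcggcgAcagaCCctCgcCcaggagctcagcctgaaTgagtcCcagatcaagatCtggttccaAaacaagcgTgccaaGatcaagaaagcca
En2: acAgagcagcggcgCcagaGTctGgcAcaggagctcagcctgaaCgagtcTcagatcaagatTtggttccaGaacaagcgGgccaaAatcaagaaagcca
The Gata2 and Gata3 stretches encode part of a zinc finger, in exon 4 of both, at chr6:88202463-88202562 (plus strand) and chr2:9868763-9868862 (minus strand).
Gata2: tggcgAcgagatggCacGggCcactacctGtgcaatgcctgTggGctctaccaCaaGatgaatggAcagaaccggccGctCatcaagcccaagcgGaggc
Gata3: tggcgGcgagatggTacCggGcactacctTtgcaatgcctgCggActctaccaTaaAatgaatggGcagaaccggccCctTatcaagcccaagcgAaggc

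Even the most alike stretches differed at 10 of 100 bases between Evx1 and Evx2, at 12 between En1 and En2 and at 13 between Gata2 and Gata3. The longest run shared exactly by the whole transcripts was 32 bases for the Evx pair and 17 bases for each of the other pairs. The gene-level counts of all 9 factors were whole numbers, within 0.005, in both libraries, as were those of 85.2% of all mouse genes in replicate 1 and 85.3% in replicate 2. These shares include genes without reads, which count as whole numbers. How reads were shared between paralogs was not tested.

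The 2 pools gave values within 2-fold for these genes, as they did for most genes averaging 1 TPM or more. Of the factors with a mean of at least 1 TPM, namely Evx1, En1, Gata2, Gata3 and Tal1, none of 5 was over 2-fold apart on the log2(TPM + 1) scale, against 1.43% of all genes above that mean. Their ratios, replicate 1 over replicate 2, ran from -0.09 for En1 to 0.23 for Gata2, with a median of 0.09 beside -0.03 over all genes tested, of which 58.5% were lower in replicate 1. Evx1, Gata2 and Tal1 were higher in replicate 1 and En1 lower. Gata3 was at -0.07 on this scale, at 0.03 with TMM or DESeq2 scaling of counts, and at 0.02 for counts scaled to the library totals. Its direction thus differed between TPM, which is corrected for length, and counts. The deposited length of Gata3 was 3022 bases in replicate 1 and 2885 in replicate 2. The deposited TPM intervals of the libraries overlapped for all 9 factors. This holds for the 5 with a mean of 1 TPM or more, and 14.3% of all genes with such a mean had intervals apart.

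By counts, Gata2 was the factor whose counting interval left out 0. Its log2 ratio of scaled counts was 0.32, with a 95% exact binomial interval of 0.08 to 0.55 for counting error, so 1 of these 5 factors was apart by this measure. The same holds for 33.4% of all genes averaging 1 TPM or more and for 22.8% of those at 1 to 10 TPM. The ratio of Evx1 was 0.21 (-0.08 to 0.50), that of Gata3 0.02 (-0.15 to 0.19) and that of Sim1 -0.13 (-0.49 to 0.22). The difference between the pools for Gata2 is therefore of a kind that many genes of its level showed. Each pool was measured by 1 library, so the technical spread within a pool was not measured.

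**Figure D2:**
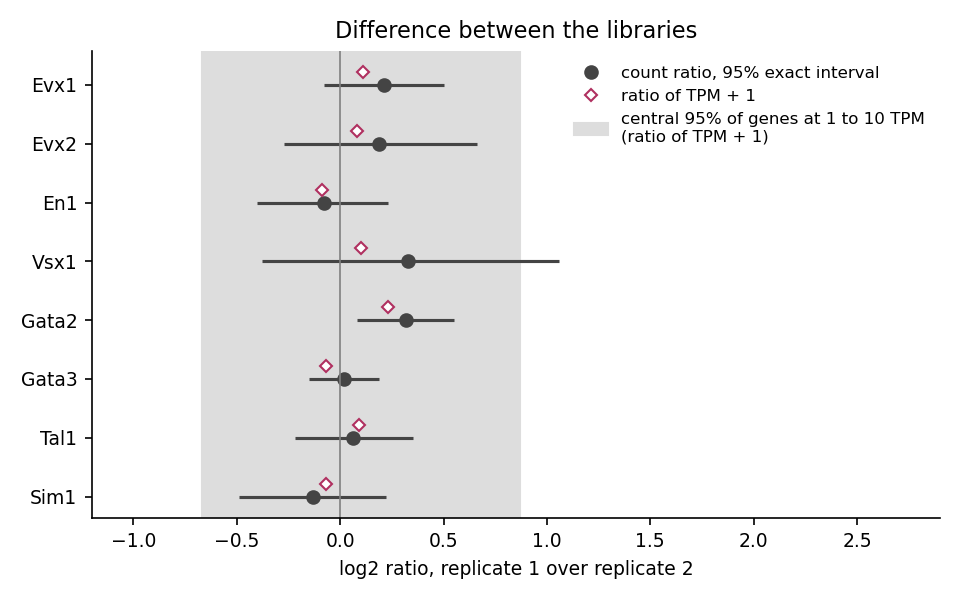
Log2 ratio of replicate 1 over replicate 2 for the 8 factors with over 3 counts. Dots with lines are ratios of scaled counts with 95% exact binomial intervals, diamonds are ratios of TPM + 1, and the grey band holds the central 95% of genes at 1 to 10 TPM (-0.67 to 0.87). All diamonds lie inside the band, and only the Gata2 interval leaves out 0. Evx2, Sim1 and Vsx1 averaged under 1 TPM, below the levels of the genes in the band.

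Evx2 lies beside the Hoxd cluster, and its nearest annotated neighbour Hoxd13 (chromosome 2, 74668310 to 74671599), a Hox gene of the tail end of the axis, lies 8753 bases away. Hoxd13 had 96 reads in replicate 1 and 23 in replicate 2, with 2.02 and 0.47 TPM. Its log2 ratio of scaled counts was 2.15 (95% exact binomial interval 1.48 to 2.87), against 0.19 (-0.27 to 0.66) for Evx2. The intervals of these neighbours did not overlap. The list of 9 tail-end genes to which Hoxd13 belongs summed to 35.1 TPM in replicate 1 and 14.6 TPM in replicate 2, with Cdx2 and Cdx4 at 0 in both. Of its 6 genes averaging 1 TPM or more, 5 were higher in replicate 1, where 58.5% of all genes tested were lower. On the log2(TPM + 1) scale 3 of the 6 were over 2-fold apart, against 1.43% of all genes tested. For Evx1, on another chromosome, the log2 ratio of scaled counts was 0.21 (-0.08 to 0.50). The part of tail-end tissue in the Evx levels was not tested.

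Evx1 is overlapped by Evx1os, an antisense long noncoding RNA gene (ENSMUSG00000086126, chromosome 6, 52308389 to 52314832, minus strand). Evx1os had 245 reads in replicate 1 and 279 in replicate 2, and at 4.58 and 5.05 TPM it stood above Evx1 in both. The log2 ratio of scaled counts was -0.10 for Evx1os (95% exact binomial interval -0.36 to 0.15) and 0.21 for Evx1 (-0.08 to 0.50), and the intervals overlapped. The genes share 73 exon bases of the 2877 of Evx1, and the sources used here leave unstated if reads were counted by strand, so reads in the shared bases cannot be told apart. The 250 bases before the RefSeq start of Evx1 (GRCm38.p6, chr6:52313248-52313497, plus strand) are shown because exon sequence of Evx1os lies in them. Capitals mark the 194 bases that are exon of Evx1os.
Evx1 promoter: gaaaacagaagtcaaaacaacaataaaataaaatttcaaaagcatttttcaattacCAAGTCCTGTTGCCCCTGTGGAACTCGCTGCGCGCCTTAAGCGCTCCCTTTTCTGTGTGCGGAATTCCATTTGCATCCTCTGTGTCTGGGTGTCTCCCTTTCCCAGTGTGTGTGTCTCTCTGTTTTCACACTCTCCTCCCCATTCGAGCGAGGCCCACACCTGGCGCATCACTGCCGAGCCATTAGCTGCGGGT

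The other overlapping genes were hardly counted. At the Gata3 locus the antisense gene Gm13256 had 3 reads in replicate 1 and 0 in replicate 2, and it shares 155 exon bases with Gata3. The overlapping genes 4930412O13Rik and 9230102O04Rik stayed under 1 TPM in both libraries. Gm43610 at En2 and Gm38708 and Gm44388 near Gata2 were not analysed here.

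Transcript use was dominated by 1 transcript at each locus. Of 20 listed transcripts of the 9 genes, 14 had reads assigned in at least 1 library. En1, En2, Vsx1 and Sim1 have a single listed transcript each. Evx1-201 held 100% of Evx1 in replicate 1 and 96.2% in replicate 2, and Evx2-201 held all of Evx2 in both. Gata3 is the only factor with several transcripts that exceeded 5 TPM in each library. Its top transcript was the full-length Gata3-201 in both, at 93.3% and 88.2%, while the top transcript differed between the libraries for 7.39% of all such genes.

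Gata2 has an upstream first exon, known from blood progenitors, and a downstream one, and the coding exons are shared. Gata2-201, which starts at the downstream exon, held 87% in replicate 1 and 78.3% in replicate 2, with 4.53 and 3.36 TPM. Gata2-202, which starts 4443 bases upstream, held 13% and 21.6%, with 0.68 and 0.93 TPM. The deposited length of Gata2-201 is 3241 bases, against 3571 in the annotation used for coordinates, so its start may differ between the annotations. Only 112 bases of Gata2-202 are in no other listed transcript, and its deposited intervals (0.222 to 1.45 and 0.338 to 1.67 TPM) overlapped between the libraries. The shift of 8.67 percentage points lay below the median of 10.6 points for the largest shift within genes of 1 to 10 TPM with several transcripts. The upstream start was thus counted in both pools at a minor share, and its share did not differ between them by more than many genes of this level.

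Tal1 shifted more. Tal1-201, with the first exon farthest upstream, held 71.2% in replicate 1 and 90.7% in replicate 2. Tal1-204, which starts 3082 bases downstream, held 28.8% and 9.29%, and Tal1-202 and Tal1-203, which start in between, were listed at 0. The shift of 19.5 percentage points lay just above the upper quartile of 19.3 points for genes of 1 to 10 TPM. Tal1-204 has only 11 bases in no other listed transcript, and its deposited intervals, 0.000387 to 1.34 TPM and 5.92e-06 to 0.786 TPM, reached almost to 0 in both libraries.

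**Figure D3:**
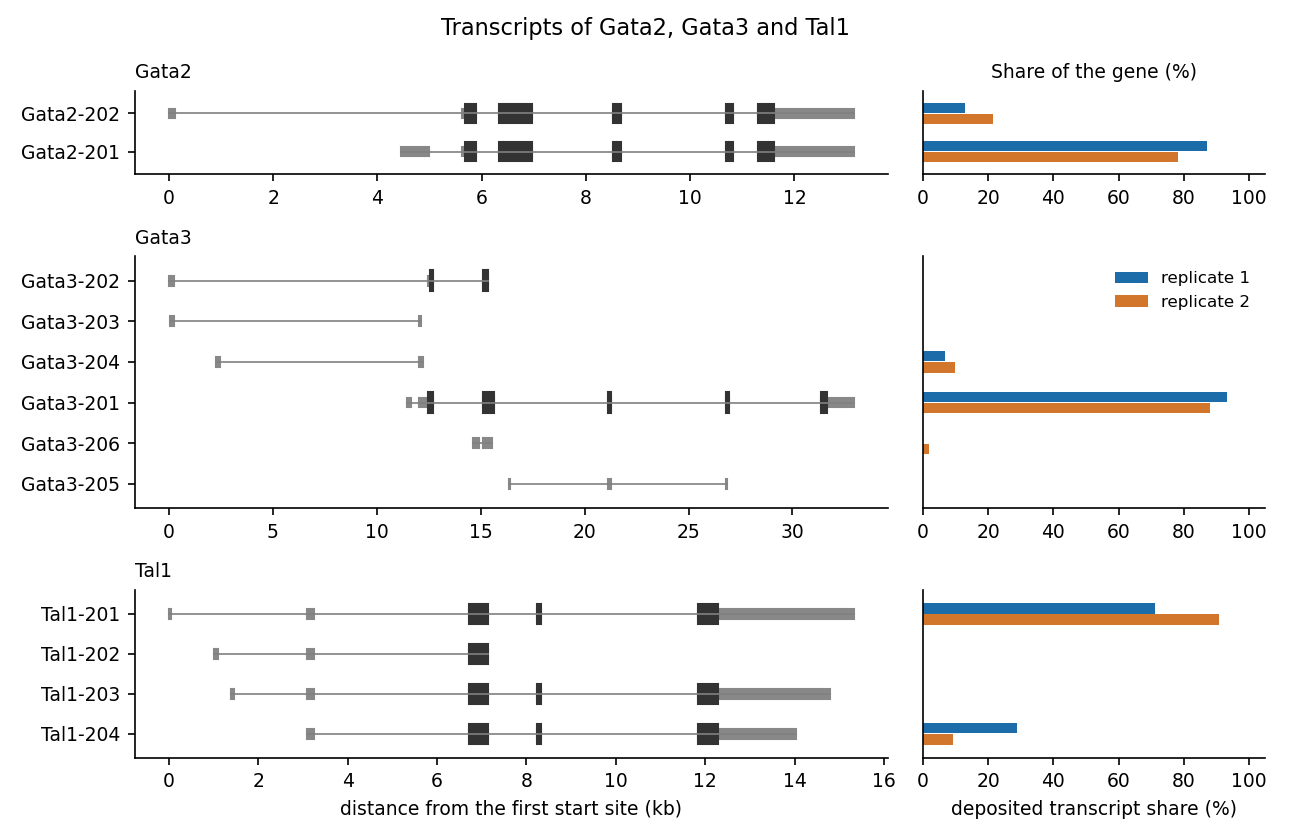
Annotated transcripts of Gata2, Gata3 and Tal1, drawn to scale from the first start site of each gene in kb (left; tall dark boxes are coding exon parts, low grey boxes are noncoding ones), and the deposited share of each transcript in percent (right). Gata2-202 holds 13% in replicate 1 and 21.6% in replicate 2, and Tal1-201 holds 71.2% and 90.7%.

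RefSeq promoter windows were matched for 8 of the 9 factors, with En2 missing, and Gata2 and Tal1 have a window for each of 2 starts. The 250 bases before the start are shown for the upstream start of Gata2 and for both starts of Tal1, since the transcript shares bear on these starts. They are from GRCm38.p6 on the plus strand, and capitals mark CpG dinucleotides. The first Tal1 window leads to Tal1-201, and the other to Tal1-203, which was listed at 0.
Gata2 upstream start, chr6:88193641-88193890: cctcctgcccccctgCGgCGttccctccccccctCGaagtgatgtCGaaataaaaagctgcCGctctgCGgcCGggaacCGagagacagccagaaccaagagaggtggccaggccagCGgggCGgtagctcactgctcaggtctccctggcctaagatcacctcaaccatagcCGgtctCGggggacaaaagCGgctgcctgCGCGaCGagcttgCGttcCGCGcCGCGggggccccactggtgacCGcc
Tal1 first start, chr4:115056176-115056425: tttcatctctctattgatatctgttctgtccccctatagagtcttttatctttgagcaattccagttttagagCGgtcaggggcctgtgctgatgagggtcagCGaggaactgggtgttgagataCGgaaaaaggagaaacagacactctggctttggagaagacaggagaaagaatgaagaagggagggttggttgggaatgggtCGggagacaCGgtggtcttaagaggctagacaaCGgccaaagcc
Tal1 second start, chr4:115057561-115057810: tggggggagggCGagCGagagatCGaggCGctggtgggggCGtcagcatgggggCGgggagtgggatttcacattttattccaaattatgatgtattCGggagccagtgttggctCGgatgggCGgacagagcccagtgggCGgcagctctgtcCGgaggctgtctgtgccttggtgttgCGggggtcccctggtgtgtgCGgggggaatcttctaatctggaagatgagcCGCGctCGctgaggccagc

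The Gata2 window held 22 CpG dinucleotides and the 2 Tal1 windows 6 and 16, against a median of 6 over all RefSeq promoter windows. The median over the 10 windows of the factors was 15. Of 32817 windows, 85.2% had fewer than the Gata2 window. The letters AGATAA, known as a site for GATA factors, occurred on either strand once in these 10 windows. That match was in the first Tal1 window, 199 bases before the start, and 9.99% of all windows hold it. CAGATG, an E-box of the kind bound by Tal1, was found in the Sim1 window at 2 places and in no other window of the factors, with a share of 14.5% among all windows. TAATTA, a homeodomain motif, and TACGTG, known as a site for dimers of Sim and Arnt proteins, were in none of the 10 windows and in 4.85% and 2.73% of all. These are matches of letters in a short window. The Sim1 window holds 178 exon bases of Sim1 itself. Exon bases of the gene also lie in the windows of En1 (69), Vsx1 (223) and the downstream start of Gata2 (250).

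In each domain the highest of the other genes stood above the factors. All 3 of the other V0 genes described reached 1 TPM in both libraries, led by the progenitor factor Dbx1 (12.4 ± 2.16 TPM), with the progenitor gene Dbx2 (2.15 ± 0.573 TPM) and Pax7 (2.04 ± 0.226 TPM), which is also a dorsal progenitor gene. All 8 of the other V1 genes did so, led by the progenitor gene Prdm12 (37.8 ± 10 TPM), which sensory neurons also express, Foxp2 (21.9 ± 0.113 TPM) and Pax2 (18.7 ± 0.813 TPM). Evx1 therefore stood below Dbx1 in both libraries, and En1 below Prdm12, Foxp2 and Pax2.

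Of the other V2 genes, 7 of 8 were detected in both libraries. Shox2 (23.4 ± 0.403 TPM), the progenitor factor Irx3 (18.8 ± 1.68 TPM) and Lhx3 (16.9 ± 4.27 TPM), which motor neurons also express, led the list (SD, n = 2). Foxn4, a progenitor factor upstream of the V2b programme, stood at 0.98 and 0.51 TPM in replicates 1 and 2. Of 4 other V3 genes, 3 were detected, with Uncx (93.9 ± 8.9 TPM) and Olig3 (33.3 ± 5.01 TPM) highest. Uncx is also a somite gene and Olig3 also a dorsal progenitor gene. The V3 progenitor factor Nkx2-2 was at 3.5 ± 0.559 TPM, above Sim1 in both libraries, and Nkx2-9 was under 1 TPM in both.

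**Figure D4:**
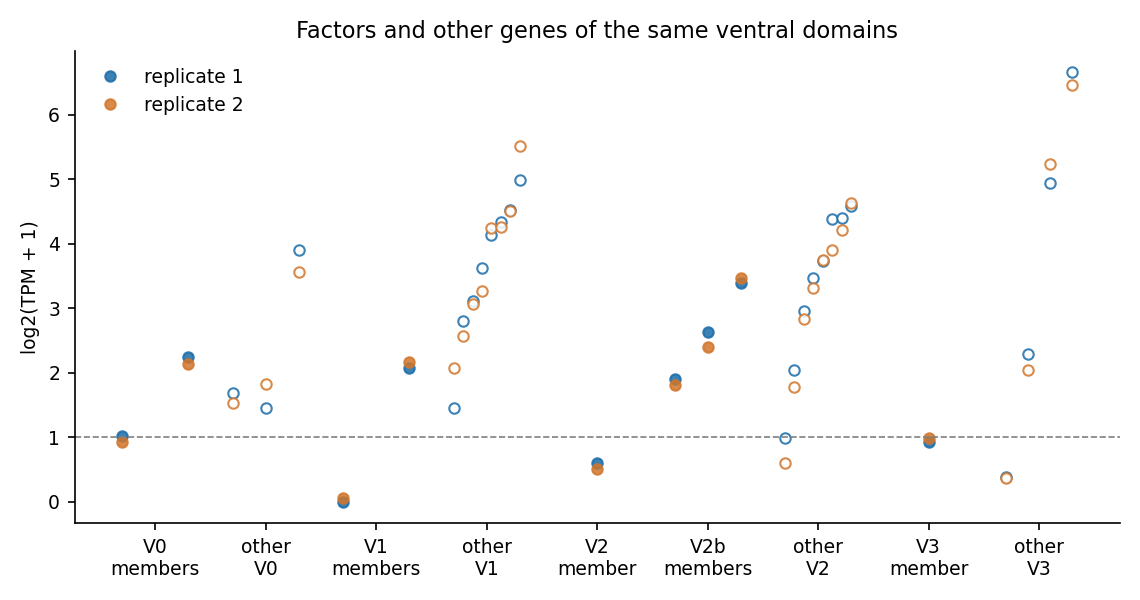
Level on the log2(TPM + 1) scale of the factors (filled) and of other genes of the same domain (open), in replicate 1 and replicate 2. The dashed line is 1 TPM. The V2b factors lie between 2.5 and 10.03 TPM, and Uncx at 93.9 TPM is the highest of the other genes.

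Genes for proteins that work with GATA factors and Tal1 were all detected. The 10 partner genes all reached 1 TPM in both libraries and summed to 682 and 697 TPM, led by the E proteins Tcf12 (167 ± 10 TPM), Tcf4 (146 ± 0.276 TPM) and Tcf3 (134 ± 5.89 TPM), with which Tal1 forms dimers. The adaptor Ldb1 stood at 120.82 and 116.74 TPM and the LIM-only gene Lmo4 at 49.61 and 45.87 TPM, both above Gata2, Gata3 and Tal1. These partners are used in many other cells. Of the transmitter genes, the 4 inhibitory ones, which V1 and V2b neurons use, were detected and summed to 68.3 TPM in replicate 1 and 57.0 TPM in replicate 2. They were led by the GABA-synthesising enzymes Gad2 (33.4 ± 4.95 TPM) and Gad1 (15.9 ± 2.33 TPM) and the glycine transporter Slc6a5 (10.2 ± 0.233 TPM). The excitatory transporter Slc17a6 stood at 38.1 ± 2.15 TPM and Slc17a8 under 1 TPM in both.

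Several of the 9 factors are also used by other cells, whose markers were present. Tal1 and Gata2 act in blood and endothelial cells. All 12 erythroid genes were detected and summed to 11645 TPM in replicate 1 and 11225 TPM in replicate 2. Most of this was globin RNA, with Hbb-y at 5365 ± 94.6, Hba-a2 at 4497 ± 247 and Hba-x at 1109 ± 32.7 TPM, and Hba-a2 has a near-identical copy, so its level is uncertain. The erythroid factor Gata1 stood at 1.00 and 1.22 TPM, below Gata2 and Tal1. All 10 endothelial genes were detected (196 and 208 TPM in sum), as were 5 of 8 genes of blood progenitors and mast cells (73.2 and 80.8 TPM). Of the erythroid genes 9 of 12 were lower in replicate 1, as were 9 of 10 endothelial genes and all 6 blood progenitor genes averaging 1 TPM or more, against 58.5% of all genes tested. The differences were small, with median log2(TPM + 1) ratios of -0.08 for erythroid, -0.11 for endothelial and -0.16 for blood progenitor genes and none over 2-fold. The ratio was 0.23 for Gata2 and 0.09 for Tal1. Their part in the levels of Gata2 and Tal1 was not tested.

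For Gata2 and Gata3, markers of sympathetic neurons gave 79.6 and 88.7 TPM in sum with 3 of 6 detected in both libraries. The catecholamine enzyme Dbh and the factor Hand2 were under 1 TPM in both, and Chga and Th, the highest, are not confined to these cells. Phox2a, the other gene detected in both, stood at 1.60 and 1.57 TPM. Serotonergic genes, which go with Gata2, Gata3 and En1 in the hindbrain, summed to 10.9 and 11.8 TPM, with 2 of 5 detected. Most of this sum came from these 2, Slc18a2 (7.86 and 8.98 TPM) and Maob (1.91 and 2.07 TPM). Fev, Tph2 and Slc6a4 were under 1 TPM in both. Neurons that contact the cerebrospinal fluid also use Gata2, Gata3 and Tal1. Their channel gene Pkd2l1 stood at 1.56 and 1.46 TPM and Pkd1l2 at 0.06 and 0.05 TPM. The part of these cells in the V2b factors was not tested.

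For the engrailed genes, 5 of 7 midbrain and isthmus genes were detected (60.9 and 60.7 TPM in sum). Among them, Pax5 stood at 2.06 and 2.76 TPM and Pitx3 at 2.43 and 2.27 TPM. The midbrain factor Otx2 stood at 0.07 TPM in both libraries and the isthmus signal Fgf8 at 0.14 and 0.07 TPM. The highest of the list, Pax8 (43.9 ± 3.26 TPM), Wnt1 (8.17 ± 2.81 TPM) and Lmx1b (3.81 ± 0.0424 TPM), are also spinal cord genes. For Vsx1, 1 of 5 retina genes was detected, Pax6, also a spinal progenitor factor, while Crx and Six6 were at 0 in both. For Sim1, the hypothalamic factor Nkx2-1 was at 0 in both, and Otp (9.87 ± 1.17 TPM) and Pomc (4.83 ± 0.643 TPM) were the detected members of 5. Somites also use Sim1 and En1. All 8 somite and muscle genes were detected, at 288 TPM in sum in replicate 1 and 211 TPM in replicate 2. Of these, 7 were higher in replicate 1, where 58.5% of all genes tested were lower. The log2 ratio of scaled counts was -0.13 (-0.49 to 0.22) for Sim1 and -0.08 (-0.40 to 0.23) for En1, so neither direction is settled. The part of these tissues in the levels of Sim1 and En1 was not tested.

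**Figure D5:**
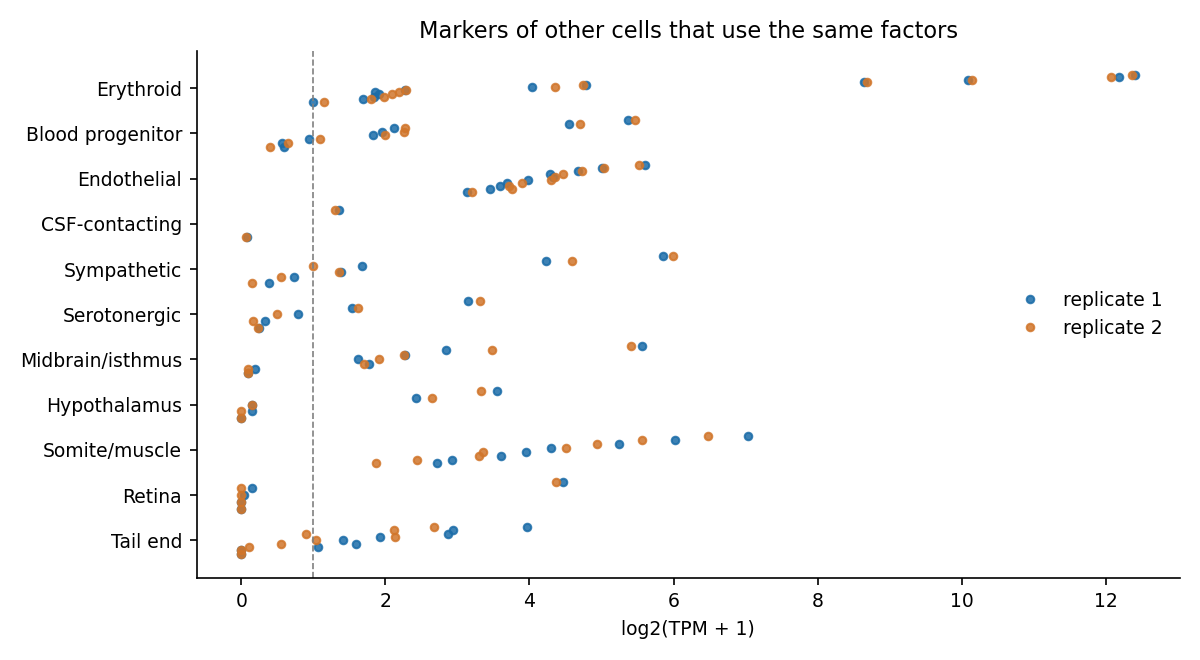
Levels on the log2(TPM + 1) scale of marker genes of other cells known to use 1 or more of the factors, in replicate 1 and replicate 2. The dashed line is 1 TPM. Erythroid markers reach 5365 TPM for Hbb-y, endothelial markers all lie above 1 TPM, and most retina and hypothalamus markers lie near 0.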

How the data were processed

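RNA-seq tables of 2 libraries of 1 group were used. Per the deposited read-me text, they come from transcriptome alignments to mm10 with GENCODE annotation M4. Which program made them is not stated in these sources. The expected counts deposited by the authors are estimated reads per gene or transcript. The deposited TPM and FPKM values are corrected for length and depth. The deposited percent values are each transcript's share of its gene. The deposited TPM bounds, handled as a score, form an interval whose level is not stated.

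Names and coordinates (1-based) were taken from a later annotation of the same assembly, GENCODE M21 on GRCm38. It named 42462 of 43346 mouse genes. In the gene tables, 26248 number-named rows and 97 further rows were left out of all totals. Ratios are replicate 1 over replicate 2 on the log2(TPM + 1) scale, which understates changes of low genes. Count ratios used counts over gene totals, with 95% exact (Clopper-Pearson) intervals by SciPy 1.17.1. TMM factors (edgeR 4.0.16) and DESeq2 1.42.0 size factors, on rounded counts, were alternatives. The scripts were tested on simulated data. The replicates are separate embryo pools, and no test between groups was possible.

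The members and the 20 lists of other genes were chosen with earlier results of these data known. Some genes of these lists are not reported here and were left out of the lists' counts and sums. Named genes are the 9 factors, up to 3 of the highest and up to 3 undetected genes of each list, and genes overlapping a factor or within 10 kb. Some genes that this rule takes are given only in the counts. Ldb1, Lmo4, Gata1, Foxn4, Hoxd13 and Evx1os are named for their role beside a factor. Pax5, Pitx3 and Phox2a are named so that every detected gene of their lists is given. No likeness of pattern over samples can be measured in 2 libraries.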

Additional observations from a re-analysis of the deposited data

How the results depend on the processing

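Over 26 results and 100 alternatives, 1 direction turned, that of the small Gata3 ratio between the pools, 85 values stayed within the spread used (the SD between libraries, the counting interval for ratios, or 1.5 times for counts) and 15 moved. The number of factors at 1 TPM or more in both libraries was 5 under the posterior mean, under FPKM and at 2 TPM, and 7 at 0.5 TPM. None was over 2-fold apart under any of the 4 alternatives. The median factor, 2.62 TPM, was 1.58 in FPKM and 2.5 to 2.73 TPM with either replicate left out. The V2b share, 64.8%, was 66.5% by posterior mean TPM and 63.1% by counts. Counts gave 10.2% for the V1 factors, 2.07% for Vsx1 and 8.18% for Sim1, which lies over 1.5 times above its TPM share because its transcript is long. With either replicate left out, shares ran from 16.5% to 17.8% (V0), 12% to 13.5% (V1), 1.61% to 1.94% (V2), 64.6% to 65% (V2b) and 3.32% to 3.8% (V3).

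The log2 difference of Evx1 over Evx2 was 1.79 with 0.1 added, 1.19 by posterior mean and 1.04 in CPM, and 1.20 to 1.23 with either replicate left out. That of En1 over En2 was 4.86, 2.05 and 2.58 under the same settings, and 2.07 to 2.10 with either left out. Gata3 over Gata2 ran from 0.76 to 1.06 with either left out. The 32 alternatives of the ratios between pools ran from -0.14 to 0.29, each inside the counting interval of its own factor's count ratio, and the Gata3 ratio of -0.07 was 0.03 by TMM or DESeq2 scaling, so its direction is not settled. By the posterior mean, Evx1-201 held 93.4%, Evx2-201 91.0% and Gata3-201 76.5%. No paired analysis was possible because there is 1 group. Depth limits En2, with 0 and 3 reads.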

Other observations

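Relatives of the factors were low, with a few exceptions. Of 6 other GATA and TAL family genes, Lyl1 (3.75 TPM in replicate 1 and 3.67 TPM in replicate 2), which is also expressed in blood and endothelial cells, and Gata1 were the 2 detected in both libraries. Gata4, Gata5, Gata6 and Tal2 stayed at or under 0.27 TPM. Gata4 had 13 reads in replicate 1 and none in replicate 2, which leaves room for 0.0895 CPM. Sim2, the paralog of Sim1, stood at 0.20 and 0.05 TPM, while Arnt2, a dimer partner of Sim1, stood at 34.19 and 38.14 TPM. Gbx2, a homeobox gene of the hindbrain and spinal cord, stood at 76.26 and 65.43 TPM, far above every one of the 9 factors.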
